A study of Mus musculus with 12 samples.

Results

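The genes described here are 9 members of the PARP family and Dtx3l, chosen by gene symbol: Parp9, Dtx3l, Parp14, Parp12, Parp10, Parp11 and Parp8, grouped as interferon-linked, and Parp1, Parp2 and Parp3, grouped as DNA-repair PARPs. All 10 had a row among the 15002 genes of the expression tables, and all 10 passed the filter on low counts. RNA was sequenced from IEC4.1, a mouse intestinal epithelial cell line of wild-type genotype, in 4 groups of 3 libraries each. Every group had been transfected with siRNA at 120 nM. In siR_Ctrl the siRNA was a scrambled control, and in siR_Nostrill it was a pool of 3 siRNAs against the long noncoding RNA Nostrill, which the labels spell Nostril. The groups siR_Ctrl + IFN-γ and siR_Nostrill + IFN-γ were also given interferon gamma at 1 ng/ml for 4 h, though the time in the labels is 24 h for every library. The comparisons ask which of these genes responded to IFN-γ, and whether siR_Nostrill altered their level or their response. Nostrill itself was not analysed here, so its knockdown was not checked. The methods call the samples biological triplicates, and neither they nor the labels say whether these were separate cultures, so the p-values measure the spread between these libraries.

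PARP enzymes transfer ADP-ribose from NAD+ onto proteins. Parp1 and Parp2 make long poly(ADP-ribose) chains at DNA breaks and Parp3 adds single ADP-ribose units there. Most of the other members add single units or, like Parp9, mainly read ADP-ribose through macro domains, and several are known as interferon-stimulated genes with roles in antiviral defence. IFN-γ signalling reaches genes through gamma-activated sites (GAS), and interferon-stimulated response elements (ISRE) are the other short element known from promoters of interferon-responsive genes.

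Depth was even, with 17824306 to 19093204 counted reads per library. The cell type was checked against markers, and the data went against the label. Of 8 epithelial markers 5 had a row, and their summed level was only 1.23 to 3.05 FPKM (fragments scaled for transcript length and for mapped reads) over the 12 libraries, nearly all of it Krt19. Krt8, Krt18, Vil1 and Cdx2 were each below 0.5 FPKM in every library. The 4 fibroblast markers summed to 242 to 451 FPKM, led by Col1a1 at 257 ± 55.9 FPKM (SD, n = 3) in siR_Ctrl. Leukocyte and endothelial markers with a row were at or near 0. The fibroblast sum overlapped among the 4 groups, and no marker of it passed the adjusted test with IFN-γ. All 4 were negative with IFN-γ in siR_Ctrl cells (median log2 fold change -0.25), where 2 were under an unadjusted p of 0.05, against 14.6% of all genes. In siR_Nostrill cells 2 of 4 were negative and 1 was under that p, against 21.9% of genes. Col3a1, a fibrillar collagen, was at -0.39 (adjusted p = 0.246) and -0.44 (adjusted p = 0.125). The part of these markers in the results below was not tested. In bulk RNA such as this, more responding cells and more RNA per cell cannot be told apart. The libraries also differed in how reads were spread over long and short transcripts. One sign of this is the ratio of TPM (the same, scaled to an equal sum in each library) to FPKM, which is a single number per library and ranged from 1.26 to 1.75, overlapping among the groups.

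Parp14, Dtx3l and Parp9 lie together on chromosome 16 of GRCm38.p6. Parp14 spans chr16:35831892-35871518, Dtx3l chr16:35926515-35939027 and Parp9 chr16:35938470-35972621. Dtx3l, an E3 ubiquitin ligase of the Deltex family that binds Parp9, is transcribed in the opposite direction to it, and the 3′ end of Dtx3l lies 55.0 kb from the start of Parp14. The spans of Parp9 and Dtx3l share 558 bases, and no source used here states whether counting used strand, so reads in the shared bases cannot be told apart. In the GENCODE M21 annotation 4 of the 7 Parp9 transcripts start within the 300-base RefSeq promoter window of Dtx3l.

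**Figure D1:**
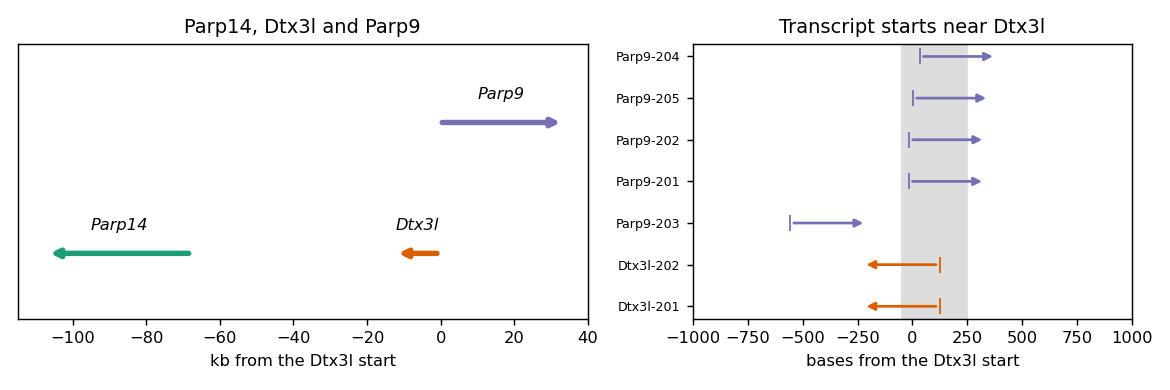
Left, positions of Parp14, Dtx3l and Parp9 in kb from the Dtx3l start, with arrows in the direction of transcription. Right, GENCODE transcript starts close to that start (ticks, with arrows of fixed length for direction) and the RefSeq promoter window of Dtx3l (grey); 4 Parp9 starts fall in that window.

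RefSeq promoter windows (GRCm38.p6, 250 bases before to 50 after a gene's start) were given for 7 of the 10 members, in 8 windows, Parp11 having 2. Parp9, Parp10 and Parp14 had no entry. The windows of 4 members that rose with IFN-γ are shown, 5′ to 3′ on the gene's strand, because these members carry the response described below. They are chr16:35938978-35939277 (minus strand) for Dtx3l, which also holds 4 of the 7 annotated Parp9 transcript starts, chr6:127446590-127446889 (plus strand) for the first Parp11 window, chr6:39118300-39118599 (minus strand) for Parp12 and chr9:106476900-106477199 (minus strand) for Parp3. Capitals mark matches to either motif searched, an ISRE core TTTCNNTTTC or a GAS TTCNNNGAA, each on both strands.
Dtx3l: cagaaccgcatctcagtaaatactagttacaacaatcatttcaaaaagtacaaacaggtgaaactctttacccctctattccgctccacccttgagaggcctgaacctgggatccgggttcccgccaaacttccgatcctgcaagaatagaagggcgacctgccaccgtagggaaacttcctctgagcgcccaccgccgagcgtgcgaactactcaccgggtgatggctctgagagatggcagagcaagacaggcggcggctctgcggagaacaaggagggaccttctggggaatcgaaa
Parp11: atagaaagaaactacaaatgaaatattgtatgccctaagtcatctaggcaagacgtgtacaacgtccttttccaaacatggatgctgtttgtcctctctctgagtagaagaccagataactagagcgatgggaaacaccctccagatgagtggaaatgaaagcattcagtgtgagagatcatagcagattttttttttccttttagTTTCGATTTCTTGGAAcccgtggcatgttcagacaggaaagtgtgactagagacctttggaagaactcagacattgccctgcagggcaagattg
Parp12: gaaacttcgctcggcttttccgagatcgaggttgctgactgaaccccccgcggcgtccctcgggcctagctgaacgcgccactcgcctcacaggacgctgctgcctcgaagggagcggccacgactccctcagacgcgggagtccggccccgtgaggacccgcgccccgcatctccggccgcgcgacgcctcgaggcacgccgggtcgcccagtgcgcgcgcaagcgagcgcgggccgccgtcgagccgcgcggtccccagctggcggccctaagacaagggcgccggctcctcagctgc
Parp3: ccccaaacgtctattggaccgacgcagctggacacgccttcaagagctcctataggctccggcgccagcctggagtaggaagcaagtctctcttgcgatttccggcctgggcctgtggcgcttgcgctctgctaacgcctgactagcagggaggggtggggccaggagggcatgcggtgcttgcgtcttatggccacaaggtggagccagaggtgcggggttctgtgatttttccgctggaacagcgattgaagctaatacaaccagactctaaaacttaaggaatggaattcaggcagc

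Only the first Parp11 window, of the 8, held either motif, and it held both. The ISRE core TTTCGATTTC lay at positions 207 to 216, counted from 1 at the 5′ end of the window. The GAS TTCTTGGAA, which matches on both strands, lay at positions 214 to 222 and so shared 3 bases with the ISRE core. Of all 32817 promoter windows of this length, 3.43% held the ISRE core and 8.29% the GAS. These are matches of letters only, and for the other members they say no more than that these letters were not in the window.

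With IFN-γ, 6 of the 7 interferon-linked members rose in siR_Ctrl cells by the edgeR quasi-likelihood test, from 3.22-fold for Parp11 to 24.5-fold for Parp14, and the same 6 rose in siR_Nostrill cells. Parp8, the seventh, passed in siR_Nostrill cells (log2 fold change 0.47) and not in siR_Ctrl cells (0.29), but the difference between these did not pass (adjusted p = 0.566) and the call was lost in 13 of 19 alternative fits. Of the DNA-repair PARPs, Parp3 rose about as much as Parp11 with both siRNAs, while Parp1 and Parp2 did not pass the test. Thus 7 of the 10 members were called higher in siR_Ctrl cells, where 4.71% of all 11900 genes tested were, and 8 of 10, Parp8 included, in siR_Nostrill cells, where 5.24% were. None was called lower. The median log2 fold change of the 7 interferon-linked members was 2.44 in siR_Ctrl cells and 2.30 in siR_Nostrill cells, that of the 3 DNA-repair members was 0.07 and -0.03, and that of all genes tested was -0.01 and -0.00056. The groups with and without IFN-γ did not overlap in FPKM for those same 7 and 8 members, against 7.50% of all genes in siR_Ctrl cells and 16.3% in siR_Nostrill cells.

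**Figure D2:**
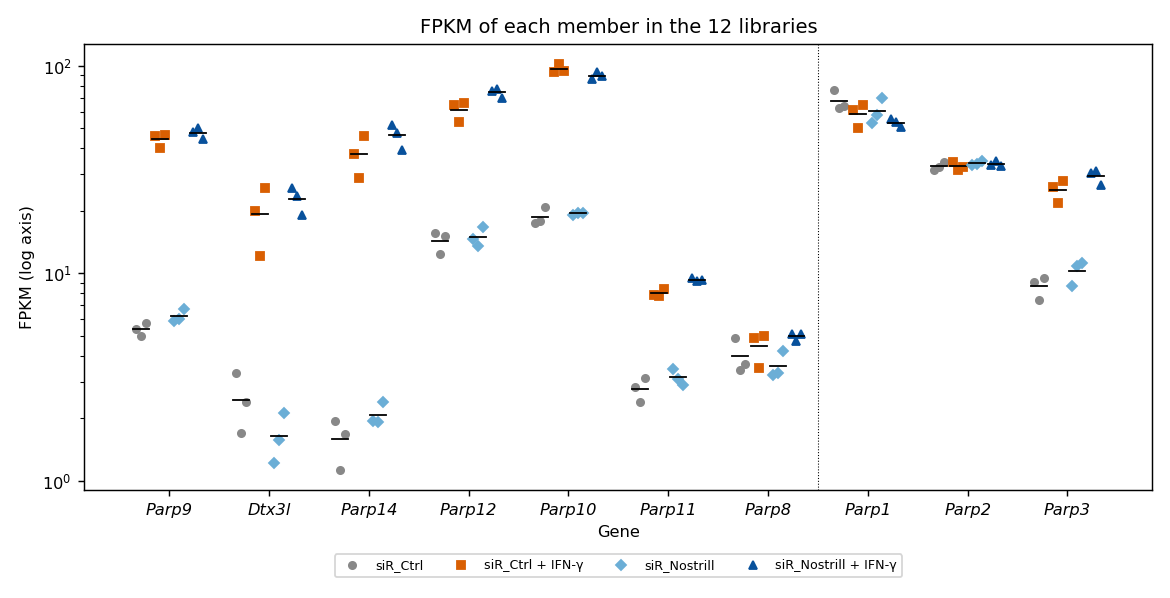
FPKM (log axis) of each member in the 12 libraries, by group; each point is 1 library and each bar the group mean. The points with IFN-γ lie apart from those without for Parp9, Dtx3l, Parp14, Parp12, Parp10, Parp11 and, right of the dotted line, Parp3, while Parp1 and Parp2 overlap.

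Parp14, a macro-domain enzyme that adds single ADP-ribose units, changed most of the 10. It stood at 1.95, 1.13 and 1.68 FPKM in the siR_Ctrl libraries and at 37.45, 28.78 and 46.05 FPKM in siR_Ctrl + IFN-γ. With the other siRNA it stood at 1.94, 1.92 and 2.39 FPKM without and at 51.69, 47.66 and 39.42 FPKM with IFN-γ. It was thus the lowest member by mean in siR_Ctrl and stayed below 2.5 FPKM in every library without IFN-γ, with no overlap. Its log2 fold change was 4.62 ± 0.20 (SE, adjusted p = 1.97e-08) in siR_Ctrl cells and 4.46 ± 0.19 (adjusted p = 2.72e-08) in siR_Nostrill cells. By count, 148 to 250 reads in siR_Ctrl became 3873 to 6118.

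Parp9 is the catalytically weak macro-domain partner of Dtx3l. Its 3 siR_Ctrl libraries gave 5.41, 5.01 and 5.76 FPKM, and those of siR_Ctrl + IFN-γ gave 45.98, 40.36 and 46.34 FPKM. In siR_Nostrill it gave 5.87, 6.01 and 6.73 FPKM, and in siR_Nostrill + IFN-γ 47.92, 50.15 and 44.62 FPKM. All 6 libraries with IFN-γ lay above all those without. The log2 fold change was 3.06 ± 0.08 (adjusted p = 4.34e-10) in siR_Ctrl cells and 2.92 ± 0.08 (adjusted p = 5.70e-10) in siR_Nostrill cells, or 8.32-fold and 7.56-fold.

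Dtx3l rose with Parp9 but with far more spread among libraries. It measured 3.29, 1.69 and 2.39 FPKM in siR_Ctrl and 19.89, 12.12 and 25.64 FPKM in siR_Ctrl + IFN-γ. In siR_Nostrill it measured 1.22, 1.58 and 2.11 FPKM, and in siR_Nostrill + IFN-γ 25.66, 23.70 and 19.08 FPKM. Groups with and without IFN-γ did not overlap, yet siR_Ctrl + IFN-γ replicate 2 was the lowest and replicate 3 the highest of its group. The log2 fold change was 3.03 ± 0.27 (adjusted p = 1.84e-05) in siR_Ctrl cells and 3.78 ± 0.29 (adjusted p = 3.60e-06) in siR_Nostrill cells. The coefficient of variation within a group reached 35.3% for Dtx3l, against at most 7.58% for Parp9.

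The FPKM of Dtx3l relative to that of Parp9 ranged from 0.337 to 0.608 in siR_Ctrl and from 0.30 to 0.553 in siR_Ctrl + IFN-γ. It ranged from 0.208 to 0.314 in siR_Nostrill and from 0.428 to 0.535 in siR_Nostrill + IFN-γ. These ranges are a description only, and the interaction test of Dtx3l given below did not pass (adjusted p = 0.430). In 3 of the 4 groups the Dtx3l level had the order of the TPM to FPKM ratio of the libraries, siR_Nostrill being the exception, and the part of that ratio in the Dtx3l spread was not tested. The 3 members with the widest spread, Dtx3l, Parp14 (up to 26.3%) and Parp8 (up to 19.7%), were also the 3 with the longest transcripts, since 83.5%, 94.1% and 93.0% of tested genes were shorter.

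**Figure D3:**
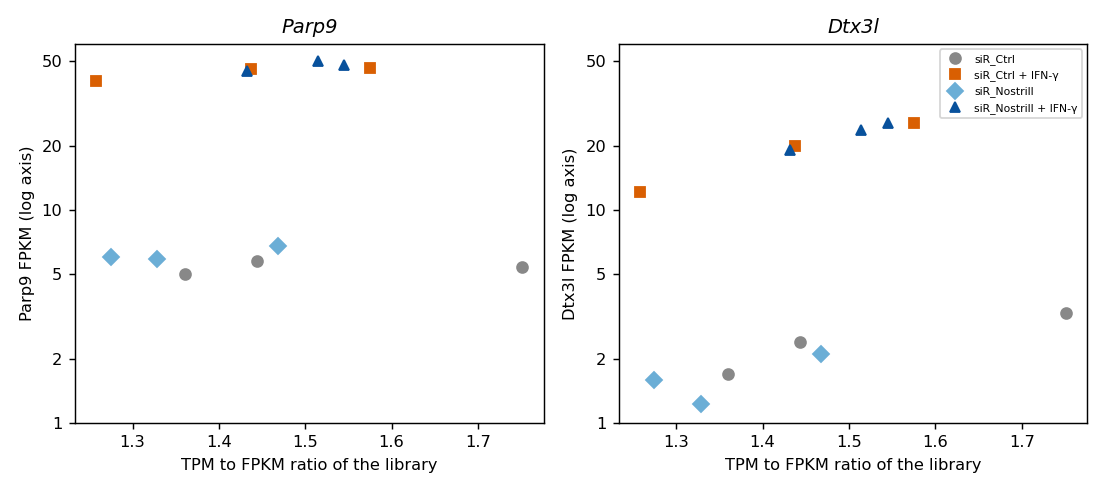
FPKM (log axis) of Parp9 (left) and Dtx3l (right) against the TPM to FPKM ratio of each library, 12 libraries in 4 groups. Parp9 is nearly level within each group, while Dtx3l in siR_Ctrl + IFN-γ goes from 12.12 FPKM in the library with the lowest ratio to 25.64 FPKM in that with the highest.

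Parp10, Parp12 and Parp11 carry a catalytic domain without macro domains in the tables' annotation. Parp10, on chr15:76232995-76243440, adds single ADP-ribose units and was the most abundant member once IFN-γ was given. It stood at 17.43, 17.85 and 20.95 FPKM in siR_Ctrl and at 92.94, 101.79 and 94.67 FPKM in siR_Ctrl + IFN-γ. The siR_Nostrill libraries gave 19.12, 19.55 and 19.59 FPKM, and those of siR_Nostrill + IFN-γ gave 86.50, 93.67 and 89.33 FPKM. Every library with IFN-γ was over 4 times as high as any without it. Its log2 fold change was 2.44 ± 0.11 (adjusted p = 2.25e-08) in siR_Ctrl cells and 2.19 ± 0.10 (adjusted p = 6.19e-08) in siR_Nostrill cells.

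Parp12, on chr6:39086412-39118349, is a zinc-finger and WWE-domain member known for antiviral activity. Its FPKM was 15.58, 12.43 and 15.06 in siR_Ctrl and 64.59, 53.55 and 65.92 in siR_Ctrl + IFN-γ. It was 14.61, 13.57 and 16.63 in siR_Nostrill and 76.03, 77.00 and 70.27 in siR_Nostrill + IFN-γ. Libraries with and without IFN-γ did not overlap, and the 3 siR_Nostrill + IFN-γ libraries were the highest of the 12. On the log2 scale it rose by 2.16 ± 0.09 (adjusted p = 1.24e-08) in siR_Ctrl cells and 2.30 ± 0.09 (adjusted p = 7.96e-09) in siR_Nostrill cells.

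Parp11, on chr6:127446830-127514233, another WWE-domain member and the one whose window above held both motifs, was the least abundant with IFN-γ of the members called with both siRNAs. It gave 2.82, 2.40 and 3.12 FPKM in siR_Ctrl and 7.87, 7.78 and 8.37 FPKM in siR_Ctrl + IFN-γ. With siR_Nostrill it gave 3.46, 3.11 and 2.88 FPKM, and with siR_Nostrill + IFN-γ 9.46, 9.17 and 9.27 FPKM. The groups with and without IFN-γ were well apart. Its log2 fold change was 1.69 ± 0.10 (adjusted p = 5.34e-07) in siR_Ctrl cells and 1.67 ± 0.10 (adjusted p = 5.94e-07) in siR_Nostrill cells, the smallest of the 6 interferon-linked members that rose with both siRNAs.

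Parp8, on chr13:116850842-117026019, is named interferon-linked but moved little. It stood at 4.87, 3.40 and 3.66 FPKM in siR_Ctrl and at 4.85, 3.50 and 5.0 FPKM in siR_Ctrl + IFN-γ, which overlapped. In siR_Nostrill it stood at 3.25, 3.31 and 4.20 FPKM and in siR_Nostrill + IFN-γ at 5.12, 4.70 and 5.10 FPKM, with no overlap. The log2 fold change was 0.29 ± 0.12 (adjusted p = 0.289) in siR_Ctrl cells and 0.47 ± 0.12 (adjusted p = 0.0468) in siR_Nostrill cells. That call was lost in 13 of 19 alternative fits, in which the adjusted p ran from 0.0117 to 0.206. The length trend is that of each library's log2 levels, relative to the gene's mean over all libraries, with transcript length. With it removed, Parp8 passed in siR_Ctrl cells instead (0.42, adjusted p = 0.0173, where 8.08% of genes were called higher). Parp8 then did not pass in siR_Nostrill cells (0.23, adjusted p = 0.139).

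**Figure D4:**
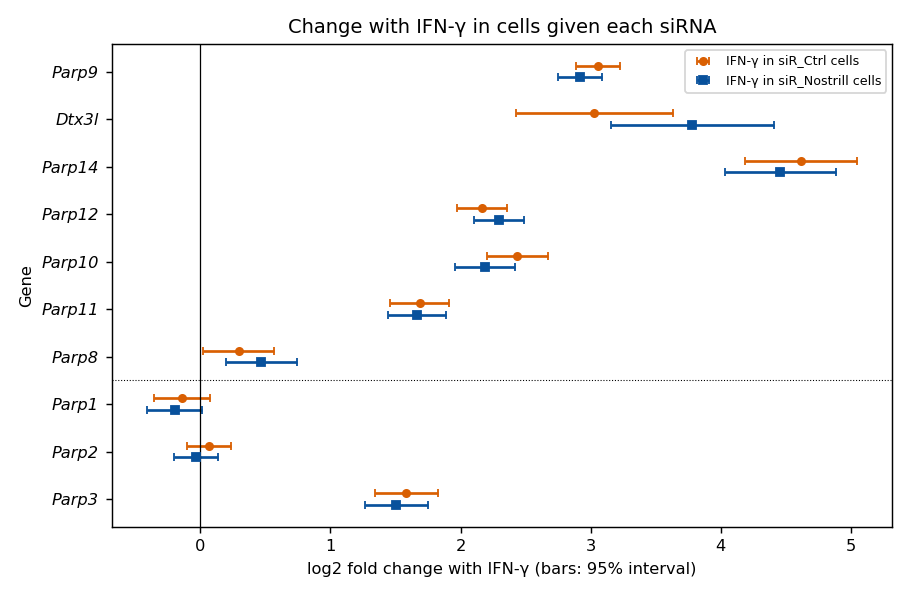
log2 fold change with IFN-γ of each member in siR_Ctrl cells (circles) and siR_Nostrill cells (squares), with 95% intervals from the edgeR fit; n = 3 libraries per group. Parp14 is highest at 4.62 and 4.46, Parp3 lies beside Parp11, and the intervals of Parp1 and Parp2 include 0.

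Among the DNA-repair PARPs, which share a regulatory domain next to the catalytic one, Parp3 went with the interferon-linked members. Parp3, on chr9:106470322-106476949, acts at double-strand breaks. It measured 9.06, 7.47 and 9.49 FPKM in siR_Ctrl and 26.18, 21.87 and 27.94 FPKM in siR_Ctrl + IFN-γ. It measured 8.66, 10.82 and 11.16 FPKM in siR_Nostrill and 30.60, 31.18 and 26.54 FPKM in siR_Nostrill + IFN-γ. No library with IFN-γ came near one without. The log2 fold change was 1.58 ± 0.11 (adjusted p = 1.76e-06) in siR_Ctrl cells and 1.51 ± 0.11 (adjusted p = 2.68e-06) in siR_Nostrill cells.

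Parp1, on chr1:180568891-180600999, makes most of the poly(ADP-ribose) of a cell after DNA damage and was the most abundant member without IFN-γ. It measured 76.40, 62.67 and 63.99 FPKM in siR_Ctrl and 60.96, 50.02 and 64.97 FPKM in siR_Ctrl + IFN-γ. It measured 52.81, 58.14 and 69.99 FPKM in siR_Nostrill and 55.55, 53.73 and 50.54 FPKM in siR_Nostrill + IFN-γ. Groups with and without IFN-γ overlapped for both siRNAs. The log2 fold change with IFN-γ was -0.14 (95% interval -0.35 to 0.07, adjusted p = 0.583) in siR_Ctrl cells and -0.20 (-0.41 to 0.01, adjusted p = 0.255) in siR_Nostrill cells. These values ran from -0.19 to -0.074 in siR_Ctrl cells and from -0.27 to -0.12 in siR_Nostrill cells with 1 library left out. With the length trend removed the value in siR_Nostrill cells was -0.25 and passed (adjusted p = 0.00906), in a fit that called 7.82% of genes lower.

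Parp2, on chr14:50807897-50821301, the close relative of Parp1, was the most even member, between 31.51 and 34.95 FPKM in all 12 libraries. Its log2 fold change was 0.07 (95% interval -0.10 to 0.24, adjusted p = 0.749) in siR_Ctrl cells and -0.03 (-0.20 to 0.14, adjusted p = 0.822) in siR_Nostrill cells. These intervals leave room for a change of at most 0.24 on the log2 scale.

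IFN-γ altered the order of the levels. In siR_Ctrl the order by mean FPKM was Parp1 (67.7), Parp2 (32.8), Parp10 (18.7), Parp12 (14.4), Parp3 (8.67), Parp9 (5.39), Parp8 (3.98), Parp11 (2.78), Dtx3l (2.46) and Parp14 (1.59). Only the neighbours Parp11 and Dtx3l, and Dtx3l and Parp14, overlapped there. In siR_Ctrl + IFN-γ it was Parp10 (96.5), Parp12 (61.4), Parp1 (58.7), Parp9 (44.2), Parp14 (37.4), Parp2 (32.9), Parp3 (25.3), Dtx3l (19.2), Parp11 (8.01) and Parp8 (4.45). Of these neighbours Parp12 and Parp1, Parp9 and Parp14, Parp14 and Parp2, and Parp3 and Dtx3l overlapped. The 2 siR_Nostrill groups had the same orders, except that Dtx3l (1.64) came below Parp14 (2.08) without IFN-γ. There Parp8 and Parp11, and Parp14 and Dtx3l, overlapped without IFN-γ, and Parp9 and Parp14 with it. The 7 interferon-linked members together summed to 43.9 to 52.6 FPKM in siR_Ctrl and 248 to 292 FPKM in siR_Ctrl + IFN-γ, while Parp1, Parp2 and Parp3 together gave 103 to 117 and 104 to 126 FPKM. In siR_Nostrill the interferon-linked sum was 49.1 to 54.5 FPKM, and in siR_Nostrill + IFN-γ 277 to 306 FPKM.

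Without IFN-γ, no member was called between siR_Nostrill and siR_Ctrl by edgeR, by DESeq2 or by limma, where edgeR called 26 genes (0.218% of all), DESeq2 265 and limma 20. The edgeR count ran from 0 to 37 with 1 library left out. At an unadjusted p under 0.05, 3 of the 10 passed (Parp9, Parp14 and Parp3), against 13.8% of all genes. Parp9 was 0.20 higher on the log2 scale with siR_Nostrill (95% interval 0.03 to 0.36, adjusted p = 0.311) and was the only member whose FPKM groups did not overlap, which 17.1% of genes also showed. Parp14 was 0.41 higher (0.01 to 0.81, adjusted p = 0.357) and Parp3 0.26 higher (0.02 to 0.51, adjusted p = 0.350). The Parp14 value ran from 0.25 to 0.56 with 1 library left out. Dtx3l was at -0.56 (-1.16 to 0.05, adjusted p = 0.371), and at -0.32 without siR_Ctrl replicate 1. With the length trend removed Parp14 passed at 0.73 (adjusted p = 0.00109), in a fit that called 3.41% of genes.

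With IFN-γ given to both, again no member was called for siR_Nostrill by any of these 3 tools, where edgeR called 51 genes (0.429%), DESeq2 596 and limma 135. The edgeR count ran from 0 to 72 with 1 library left out. Only Parp12 passed at an unadjusted p under 0.05, which 14.5% of genes did, at 0.22 (95% interval 0.04 to 0.40, adjusted p = 0.241). Parp12 and Parp11 were the members whose FPKM groups did not overlap, both higher with siR_Nostrill, against 22.9% of genes. Parp11 was at 0.16 (-0.05 to 0.37, adjusted p = 0.492), Parp14 at 0.25 (-0.11 to 0.61, adjusted p = 0.529), Dtx3l at 0.20 (-0.34 to 0.74, adjusted p = 0.765) and Parp10 at -0.17 (-0.39 to 0.05, adjusted p = 0.471). Without siR_Ctrl + IFN-γ replicate 2, Dtx3l went to -0.017, Parp14 to 0.13 and Parp10 to -0.080, and without replicate 3 of that group Dtx3l went to 0.43 and Parp14 to 0.39. Parp1 was at -0.20 (-0.41 to 0.02, adjusted p = 0.380). With the length trend removed, in a fit that called 12.9% of genes, Parp12 (0.20, adjusted p = 0.0430) and Parp1 (-0.23, adjusted p = 0.0217) passed.

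The difference in IFN-γ response between the siRNAs was tested as an interaction, the log2 fold change in siR_Nostrill cells minus that in siR_Ctrl cells. No member passed by edgeR, DESeq2 or limma. Of the 11900 genes tested with edgeR 0.00% passed, and none passed among those that DESeq2 or limma tested, limma covering only genes above its FPKM minimum. At an unadjusted p under 0.05 none of the 10 members passed and 10.7% of genes did. The largest estimate was that of Dtx3l, at 0.76 (95% interval -0.06 to 1.57, unadjusted p = 0.0662, adjusted p = 0.430), and it fell to 0.50 with the length trend removed. Parp10 was at -0.25 (-0.56 to 0.06), Parp8 at 0.17 (-0.21 to 0.56), Parp14 at -0.16 (-0.70 to 0.38), Parp9 at -0.14 (-0.36 to 0.09) and Parp12 at 0.14 (-0.13 to 0.40). The direction turned for Parp8 with the length trend removed (-0.19) and for Parp14 with limma (0.052) and without siR_Ctrl replicate 2 (0.0013). Over its 18 alternative fits the Parp14 interaction ran from -0.56 to 0.052. The intervals of Parp9, Parp12, Parp11, Parp1, Parp2 and Parp3 all stayed within 0.42 of 0 on the log2 scale, so a larger difference in response would lie outside them. Those of Dtx3l, Parp14, Parp10 and Parp8 left room for more. The contrasts with and without IFN-γ share libraries with one another, and their values are set side by side only.

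**Figure D5:**
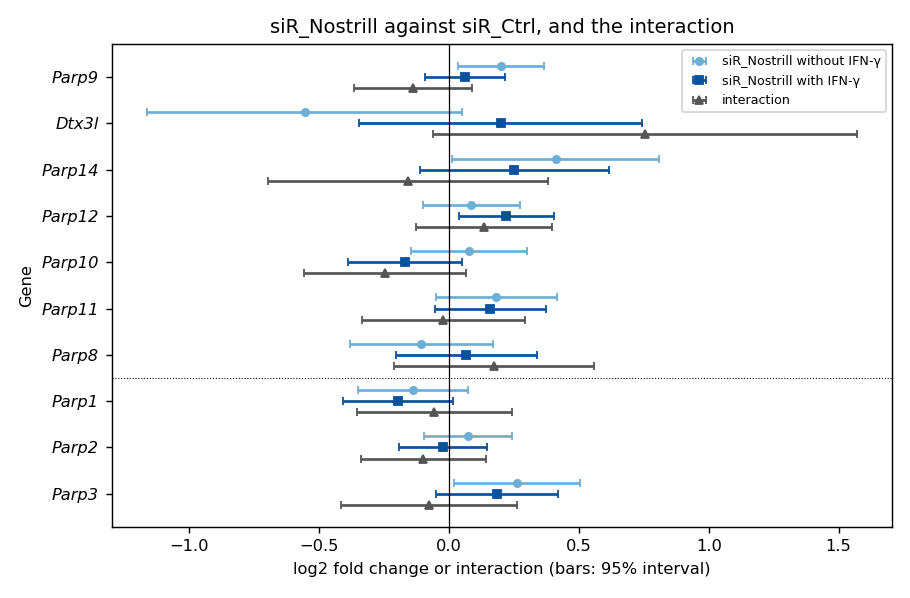
log2 fold change of siR_Nostrill against siR_Ctrl without IFN-γ (circles) and with it (squares), and the interaction (triangles), with 95% intervals from the edgeR fit; n = 3 libraries per group. The Dtx3l intervals are the widest, and no member passed the adjusted test in any of the 3 comparisons.

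The genes most like Parp9 over the 12 libraries, by Pearson's r of log2 CPM (counts scaled for library size), were the immunity-related GTPases Irgm2 and Irgm1, the antibody receptor Trim21, the transcription factor Stat2 and the guanylate-binding protein Gbp6, with r from 0.998 to 0.999. In that order of 11899 genes Parp12 ranked 15, Parp14 19, Parp10 41, Parp11 49, Parp3 72, Dtx3l 145 and Parp8 617, while Parp2 ranked 3563 (r = 0.17) and Parp1 10985 (r = -0.57). The 12 points share the split by IFN-γ, so these r describe that split. The genes most like Parp1 were Scrib, Smc3, Traf3ip1, Pnn and Col5a2, with r from 0.959 to 0.974, and none of the other members came near, Parp8 ranking first among them at 7311.

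Of the 7 other genes with a PARP catalytic domain, all tested, 1 was called higher with IFN-γ in siR_Ctrl cells and 2 in siR_Nostrill cells, against 4.71% and 5.24% of all genes tested, and the medians were 0.08 and 0.32. Zc3hav1, the antiviral zinc-finger protein ZAP, went from 22.4 ± 5.35 to 34.1 ± 6.84 FPKM (SD, n = 3) in siR_Ctrl cells (0.64 on the log2 scale, adjusted p = 0.0241) and from 19.4 ± 2.29 to 39.5 ± 2.79 FPKM in siR_Nostrill cells (1.0, adjusted p = 0.00115). Parp4, the vault particle PARP, passed in siR_Nostrill cells alone (1.08, adjusted p = 0.0454, and 0.55, adjusted p = 0.426, in siR_Ctrl cells), and the interaction did not pass (adjusted p = 0.469). The Zc3hav1 call in siR_Ctrl cells was lost in 6 of 19 alternative fits (highest adjusted p = 0.187) and the Parp4 call in 8 of 19 (highest adjusted p = 0.193), both with limma among them. Parp4 in siR_Ctrl cells ran from 0.33 to 0.94 with 1 library left out. It passed there in 1 of 19 alternative fits, with the length trend removed (0.70, adjusted p = 0.00171, where 8.08% of genes were called higher). The tankyrase Tnks2, Tiparp and Parp16 did not pass with either siRNA.

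The partners of these enzymes were mostly not called. None of the 5 tested genes that remove ADP-ribose, among them Adprh, Adprhl2 and Oard1, passed with IFN-γ, and neither did the 3 tested Deltex ligases Dtx2, Dtx3 and Dtx4 or the 7 partners of Parp1 in single-strand break repair, such as Hpf1, Xrcc1 and Polb. At an unadjusted p under 0.05 by edgeR, 1 and 2 of the first, 1 and 0 of the second and 0 and 0 of the third passed in siR_Ctrl and siR_Nostrill cells, against 14.6% and 21.9% of all genes tested. At the adjusted threshold DESeq2 called 1 Deltex ligase, Dtx3, in siR_Ctrl cells and limma none. Medians were 0.12 and -0.37 for removal of ADP-ribose, -0.07 and 0.0020 for the Deltex ligases and 0.10 and -0.19 for the repair partners, in siR_Ctrl and siR_Nostrill cells. For the interaction no gene of the first list passed by edgeR, DESeq2 or limma, while 3 of 5 were under an unadjusted p of 0.05, against 10.7% of all genes. These were Parg (0.39), Adprh (-0.45) and Macrod1 (-0.74), each with an adjusted p of 0.430. Between siR_Nostrill and siR_Ctrl with IFN-γ, 2 of 5 were under that p, Adprh (-0.28, adjusted p = 0.265) and Macrod1 (-0.50, adjusted p = 0.342), against 14.5% of genes. Of the 9 tested genes of NAD+ supply and use, 2 were called higher with both siRNAs, against 4.71% and 5.24% of all genes in siR_Ctrl and siR_Nostrill cells. Nampt, the rate-limiting enzyme of NAD+ salvage, went from 27.8 ± 2.98 to 50.7 ± 6.82 FPKM in siR_Ctrl cells (0.93 on the log2 scale, adjusted p = 6.06e-05) and from 26.9 ± 1.55 to 50.8 ± 4.02 FPKM in siR_Nostrill cells (0.90, adjusted p = 8.77e-05). Bst1, a surface enzyme that consumes NAD+, also passed (adjusted p = 0.00284 and 0.0173) but reached only 0.277 ± 0.032 and 0.213 ± 0.055 FPKM, and its call in siR_Nostrill cells was lost in 4 of 17 alternative fits.

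The interferon transcription factors Irf1, Stat2 and Irf9 rose with both siRNAs. On the log2 scale Irf1 rose by 3.57 and 3.23 with siR_Ctrl and siR_Nostrill, Stat2 by 3.18 and 2.91, and Irf9 by 2.31 and 1.77. Irf9 was also higher with siR_Nostrill than with siR_Ctrl without IFN-γ, at 9.14 ± 1.09 against 6.16 ± 0.50 FPKM (log2 fold change 0.58, adjusted p = 0.0357), a call lost in 13 of 19 alternative fits (highest adjusted p = 0.462), including each fit without 1 library of these 2 groups. With IFN-γ it was at 0.04 (adjusted p = 0.856), and its interaction was -0.54 (unadjusted p = 0.00118) and did not pass (adjusted p = 0.430). The interactions of all 3 factors were negative (median -0.35), with Irf1 at -0.35 (unadjusted p = 0.0215) and Stat2 at -0.27 (unadjusted p = 0.0769), each with an adjusted p of 0.430. Thus 2 of 3 were under an unadjusted p of 0.05, against 10.7% of all genes, and none was called by edgeR, DESeq2 or limma.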

How the data were processed

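The authors deposited, per gene and library, an estimated read count that was not normalized, an FPKM and a TPM value. According to the study's methods, poly(A) RNA was sequenced on a DNBSEQ platform, HISAT2 and Bowtie2 aligned the reads to GRCm38.p6 after SOAPnuke filtering, and GATK was used to filter sites. How reads were counted per gene was not given in the sources used here. RPKM is the unit in the methods, FPKM that of the columns. The deposited FPKM corrects for length and sequencing depth, and the deposited TPM has almost 1 common sum over the libraries. TPM was used here only for its ratio to FPKM. Between 90.6% and 91.6% of the deposited estimated counts were exactly whole, zeros included, and all were rounded to whole numbers before testing.

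The members and gene lists were chosen with earlier results of these data known. The named genes were all 10 members, every list gene called for IFN-γ, up to 3 further genes of a list by mean FPKM, and the 5 genes most like Parp9 and Parp1. Parg and Macrod1 were named besides for their unadjusted p in the interaction, and some cell type markers for the check of cell type. Counts were fitted over all 12 libraries in 4 groups with edgeR 4.0.16 in R 4.3.3 (filterByExpr, TMM, quasi-likelihood test), and p-values were adjusted by Benjamini-Hochberg over all 11900 genes, with a threshold of 0.05. Errors are SE from the fit and intervals are 95%. Alternatives were DESeq2 1.42.0, its size factors in edgeR, no filter, only the groups compared, a replicate block, removal of the length trend (lowess, span 0.3), limma 3.58.1 on log2(FPKM + 1) for genes with a mean of at least 0.5 FPKM, and each library left out. For leave-one-out fits that leave a group of 2 the spread was pooled over groups. The fits were tested on simulated data. The tables list mRNA only. A result on 1 further list gene is not reported here.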

Additional observations from a re-analysis of the deposited data

How the results depend on the processing

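The 15 calls of members with IFN-γ were refitted in 285 alternative fits, of which 272 kept the call and its direction. The 13 losses were all of Parp8 in siR_Nostrill cells. They came with DESeq2 size factors, no filter, length trend removed and limma, and without any 1 of 9 libraries (adjusted p from 0.0533 to 0.206). The call was kept without replicate 1 of siR_Ctrl and without replicate 2 or replicate 3 of siR_Ctrl + IFN-γ. Members called were 7 in siR_Ctrl cells and 7 to 8 in siR_Nostrill cells when 1 library was left out. With the length trend removed, members called for siR_Nostrill rose from 0 to 1 without IFN-γ and from 0 to 2 with it, while the interaction kept 0.

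Directions that turned were all of values not called. With the length trend removed Parp2 went to 0.086 for IFN-γ in siR_Nostrill cells, to -0.055 for siR_Nostrill without IFN-γ, to 0.025 with IFN-γ and to 0.079 for the interaction, and Parp8 went to 0.19, -0.0023 and -0.19 in the last 3 of these. With limma Parp2 went to 0.032 for siR_Nostrill with IFN-γ, and the interaction went to 0.052 for Parp14, 0.057 for Parp11, 0.039 for Parp1 and 0.0011 for Parp3. The cause was not tested. With 1 library left out, siR_Nostrill without IFN-γ ran from -0.74 to -0.32 for Dtx3l (the latter without siR_Ctrl replicate 1), siR_Nostrill with IFN-γ ran from -0.017 to 0.43 for Dtx3l and from -0.057 to 0.13 for Parp8, both below 0 only without siR_Ctrl + IFN-γ replicate 2, and the interaction from -0.30 to 0.0013 for Parp14, from -0.099 to 0.054 for Parp11 and from -0.14 to 0.023 for Parp1. It was above 0 for Parp14 without siR_Ctrl replicate 2, for Parp11 without that library or siR_Nostrill replicate 1, and for Parp1 without siR_Nostrill replicate 3.

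Counts over all genes depended more on the fit. They were 649, 807, 26 and 51 for IFN-γ in siR_Ctrl cells, IFN-γ in siR_Nostrill cells, siR_Nostrill without IFN-γ and siR_Nostrill with IFN-γ. With the length trend removed they were 1320, 2256, 406 and 1537, and with only the groups compared 341, 1997, 0 and 0. DESeq2 gave 1330, 265 and 596 for the last 3, limma gave 135 and no filter 30 for the last. With 1 library left out they ran from 489 to 589, from 491 to 1138, from 0 to 37 and from 0 to 72. The interaction gave 0 throughout.

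Libraries with the same replicate number did not regularly vary together. In deviations from group means over all genes, 8 of 18 same-numbered pairs correlated above 0.1 (r from -0.50 to 0.73). These r also take in any difference that runs over a whole library, so they cannot show whether libraries shared a culture or batch. With a replicate block no call of a member changed, Irf9 for siR_Nostrill without IFN-γ lost its call (adjusted p = 0.0640), and genes called for siR_Nostrill with IFN-γ went from 51 to 32.

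Among the other named genes, single libraries ended 4 calls. Zc3hav1 in siR_Ctrl cells was lost without replicate 2 or 3 of siR_Ctrl and without replicate 1 or 3 of siR_Ctrl + IFN-γ. Parp4 in siR_Nostrill cells was lost without 7 of the 12 libraries, among them replicate 1 or 2 of siR_Nostrill and each of siR_Nostrill + IFN-γ. Bst1 was lost there without replicate 1 or 2 of siR_Nostrill and without replicate 2 or 3 of siR_Nostrill + IFN-γ. Irf9 for siR_Nostrill without IFN-γ was lost without any library of siR_Ctrl, siR_Nostrill or siR_Nostrill + IFN-γ and without replicate 1 of siR_Ctrl + IFN-γ.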
